A study of Saccharomyces cerevisiae with 6 samples.

Results

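The transcripts described here are the short non-coding RNAs annotated opposite a single gene of budding yeast, *Saccharomyces cerevisiae*. A transcript was included when it was listed against exactly 1 gene, was the longest antisense transcript of that gene and was shorter than 500 bp. The rule selected 472 of 2169 distinct antisense transcripts, beside 880 single-gene transcripts of 500 bp or more and 162 transcripts listed against several genes, which together make up the 1514 longest transcripts of their genes. The question was how nascent reads over these intervals, and over the genes they face, differed in cells without *DBP2*, which encodes a DEAD-box RNA helicase. Reads came from transient transcriptome sequencing (TT-seq), in which RNA made during a short pulse of 4-thiouracil is enriched and sequenced.

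The wild-type strain was BY4741 (*MATa his3Δ1 leu2Δ0 met15Δ0 ura3Δ0*) and the mutant was BTY116 (*MATα*, *dbp2::KanR*, with *his3Δ0*, *leu2Δ0* and *ura3Δ0*, and *TRP1*, *MET* and *LYS*). Both carried the empty *URA3* vector pRS426 and were grown at 30 °C with 2% glucose in medium lacking uracil, with 3 libraries of each strain. Cultures at an optical density of 0.5 were labelled with 0.32 mg/ml 4-thiouracil for 10 min. Mating type and several markers differ along with *DBP2*, so the mutation cannot be told apart from the rest of the strain background. Marker reads were set against these genotypes. *LYS2*, a lysine synthesis gene that the wild-type genotype leaves intact, had 1, 0 and 1 reads in wild-type and 4477, 4710 and 5894 in *dbp2Δ*, which goes against the genotype given for the wild-type libraries. *HIS3*, a histidine synthesis gene named as fully deleted in the mutant, had 327, 302 and 307 reads in *dbp2Δ* and 632, 841 and 2042 in wild-type, which goes against that genotype as well, while *LEU2* had 0 reads in every *dbp2Δ* library and *MET17* (*MET15*) had 0 in every wild-type library. *TRP1*, which neither genotype lists as deleted, had 80, 97 and 167 reads in wild-type and 687, 760 and 867 in *dbp2Δ*. *URA3*, carried by the vector in both strains, had 1373, 1417 and 1069 reads in wild-type and 3080, 4194 and 5571 in *dbp2Δ*. The source of these departures and differences was not tested, and the strains are called wild-type and *dbp2Δ* here as the libraries are labelled. In the gene counts, *DBP2* had 10976, 11136 and 11213 reads in wild-type replicates 1 to 3 and 0, 0 and 2 reads in *dbp2Δ* replicates 1 to 3. All 7 **a**-specific genes checked were lower and all 4 α-specific genes checked were higher in *dbp2Δ*. Libraries held 6968216 to 13134963 gene reads, all wild-type totals being larger, and the 472 intervals together held 110304 to 218700 reads per library, or 1.5% to 1.67% of the gene reads. Tests below measure the spread between the libraries of a strain, which was wider in wild-type (biological coefficient of variation of antisense counts, 25.9%) than in *dbp2Δ* (9.43%). Among the 471 intervals tested, wild-type replicate 3 was at least 2 times the mean of its strain's other libraries at 17, against 1 for wild-type replicate 1 and 8 for wild-type replicate 2. On the low side, replicate 1 was at most 0.5 times that mean at 22 intervals, replicate 2 at 4 and replicate 3 at 7.

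Yeast antisense RNAs are grouped by their stability and by the decay pathway that removes them. Cryptic unstable transcripts (CUTs) are terminated early by the Nrd1-Nab3-Sen1 complex and degraded by the nuclear exosome. Stable unannotated transcripts (SUTs) escape that route, and Xrn1-sensitive unstable transcripts (XUTs) are removed by the 5′ to 3′ exonuclease Xrn1. Because most are short-lived, a nascent-RNA assay can see them before decay, but only where reads of the opposite strands are kept apart. The library kit marks strand. The sources used here do not give the strand setting of the read counting. Gene reads counted within an interval and reads of its antisense transcript therefore cannot be told apart. Where strands are named below, they mean the interval count and the gene count.

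Of the 472 transcripts, 216 were CUTs, 198 were XUTs, 57 were SUTs and 1 was in none of these classes. They lay on all 16 nuclear chromosomes, 221 on the plus and 251 on the minus strand. The median length was 361 bp, with quartiles of 297 and 424 bp and a range of 41 to 497 bp. For 458 members the gene was in the R64 annotation, where genes are drawn as coding spans without UTRs. Against these genes, 177 intervals lay wholly within the gene, 179 ran past its 3′ end, 90 ran past its 5′ start and 12 spanned it. A median of 89.4% of an interval lay within the gene, and the interval covered a median of 21.9% of the gene. Only the interval of *YCL041C* overlapped an annotated gene on its own strand (*YCL042W*), and 226 intervals lay within 300 bp of another gene.

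The first 30 bases of 10 transcripts are shown because these members carry the strain differences described below. Sequence is from the R64 genome on the strand of the transcript, 5′ to 3′, with the letters bound by Nrd1 (GTAA or GTAG) and Nab3 (TCTT) in capitals.
PIR3 (SUT, chrXI:144926-144955, minus strand): tgcagcagccttaGTAGagGTAGtggcctg
MEP2 (CUT, chrXIV:358896-358925, minus strand): agaagaagcgtcggaaggcGTAGaatTCTT
MDH2 (XUT, chrXV:81602-81631, plus strand): gatgaatcactcgcttatatgggGTAGaat
CIN5 (CUT, chrXV:383618-383647, plus strand): tttTCTTcgagatttttgatgtatttctca
ATG41 (CUT, chrXVI:74137-74166, plus strand): GTAGaattgaGTAAGTAAgttctatgtata
RDT1 (CUT, chrIII:31160-31189, minus strand): cgtggctatatatacgcaatatatacactt
LST4 (SUT, chrXI:115095-115124, plus strand): aaggggagccagaacgcttctggtggtgta
CDC24 (XUT, chrI:65699-65728, minus strand): agcaaatacgttaacatacattaatgatct
HEK2 (XUT, chrII:160214-160243, minus strand): gccgttggtattgtttgtgggaattgcaac
TUB1 (SUT, chrXIII:97681-97710, plus strand): tgatGTAAgaatctgatgaaacaagtacaa
The motifs are short and were searched on the transcript strand alone. Within the first 200 bases, GTAA or GTAG occurred in 82.6% and TCTT in 83.8% of the 438 members of at least 200 bases, and both in 68.9%. The same shares were 80.5%, 78.4% and 62.7% in the 880 longer single-gene transcripts. The letters TATAAA stood within 150 bases upstream of 14.4% of members and of 16.1% of the longer transcripts. Median GC content was 39.3% in the members and 39.2% in the longer transcripts.

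Reads over these intervals followed the level of the gene opposite. Levels were compared as normalized counts per kb, where a normalized count is the read count scaled to the mean effective library size. For the 173 intervals wholly within a gene whose mean normalized count was at least 50, the interval held a median of 1.37 times as many counts per kb as the whole gene (quartiles 1.26 and 1.55). In 155 of these 173 the interval was at or above its gene per kb in all 6 libraries, and in 160 its count did not pass the gene's count in any library. The median of the ratio was 1.36 to 1.41 in every library, so this property was alike in both strains. The ratio was larger for shorter intervals, with a median of 1.83 under 200 bp (17 intervals), 1.5 from 200 to 299 bp (35 intervals), 1.37 from 300 to 399 bp (59 intervals) and 1.32 from 400 to 499 bp (62 intervals). Counts were divided by interval length alone, with no correction for reads that cross an interval's edge. Reads counted across an edge would add more per kb to a shorter interval, and their part in these ratios was not tested.

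**Figure D1:**
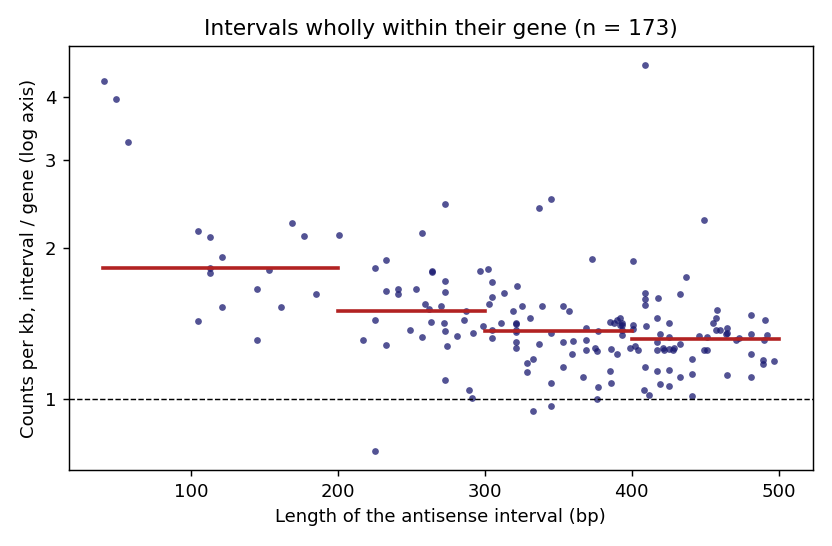
Counts per kb over the interval divided by counts per kb over its gene (log axis) against interval length in bp, for the 173 intervals wholly within a gene whose mean normalized count reached 50. Each point is 1 interval averaged over 6 libraries, red bars are the medians of the length classes (1.83, 1.5, 1.37 and 1.32), and the dashed line is equality. Most points lie between 1 and 2 (156 of 173). Counts per kb are not corrected for reads that cross an interval's edge.

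Where less of the interval lay within the gene, it held fewer counts per kb relative to that gene. The median ratio was 1.21 for intervals with 90% to under 100% within the gene (46 intervals) and 1.03 from 50% to under 90% (123 intervals). It was 0.660 from 10% to under 50% (66 intervals) and 0.400 under 10% (19 intervals). These ratios describe levels only, and no test was made on them.

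**Figure D2:**
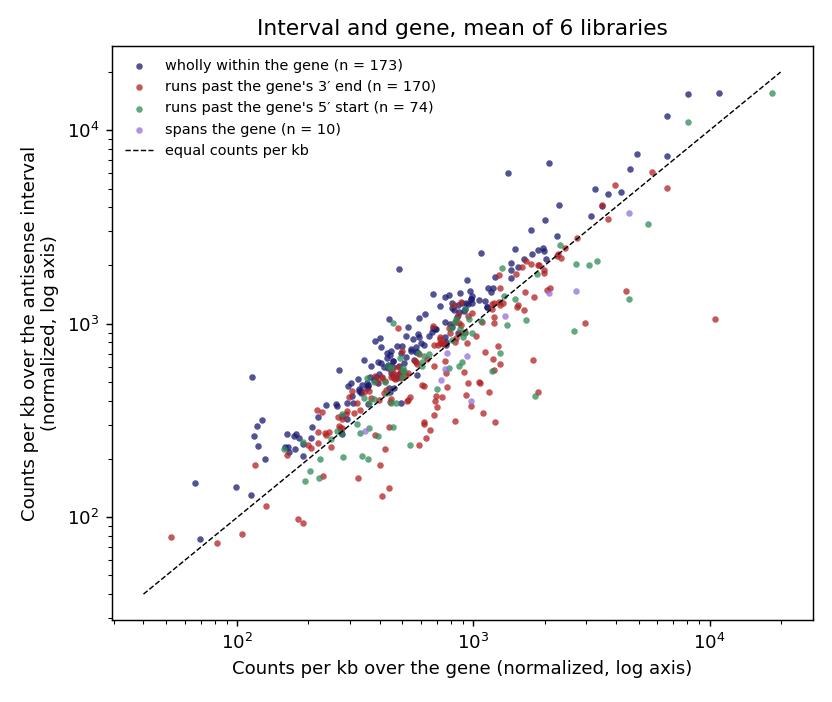
Mean normalized counts per kb over the antisense interval against those over its gene (both axes log), 1 point per member with a gene mean of at least 50 (427 members), coloured by position. Intervals wholly within the gene lie mostly above the dashed line of equality (median ratio 1.37), and those past the 3′ end or 5′ start lie around it (medians 1.03 and 0.984).

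The intervals with the most counts per kb, which carry the limit at interval edges given above, faced strongly transcribed genes. The highest was that of *NSR1*, which encodes a nucleolar protein of pre-rRNA processing, with 15667 counts per kb over the 105-bp interval and 10940.1 over the gene. It was followed by *UTH1* (15562 over the interval, 18347 over the gene), *DED1*, *FAS2* (11892 and 6579) and *CTS1*, which encode a SUN-family protein, a translation helicase, a fatty acid synthase subunit and an endochitinase. The *NSR1* interval had 1407, 1808 and 1631 normalized counts in wild-type replicates 1 to 3 and 1576, 1592 and 1857 in *dbp2Δ* replicates 1 to 3. The strains overlapped there, with a log2 fold change of 0.05 (SE 0.16, edgeR adjusted p = 0.81). Of these 5 intervals, those of *DED1* (fell by 0.58, adjusted p = 0.035) and *FAS2* (fell by 0.73, adjusted p = 0.028) passed the edgeR test. Both lost the call without wild-type replicate 2 and without *dbp2Δ* replicate 1 or 2, and *DED1* also without *dbp2Δ* replicate 3, with adjusted p up to 0.13 for *DED1* and 0.11 for *FAS2* over the alternatives.

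Between strains, 177 of 471 tested intervals passed the edgeR test, 65 higher and 112 lower in *dbp2Δ*. That is 37.6% of the members, beside 43.5% of all 1513 longest antisense transcripts tested. By direction, 13.8% of members were higher and 23.8% lower, beside 22.5% and 21.0% of all longest transcripts. The longer single-gene transcripts had 242 higher and 177 lower of 880. The balance of directions among members rested on the scaling, since library sizes without a composition factor gave 79 higher and 79 lower and upper quartile factors gave 76 and 85. These settings moved all 1513 longest transcripts the same way, to 390 higher and 257 lower with library sizes and 376 and 259 with upper quartile factors, in place of 340 and 318. Without *dbp2Δ* replicate 1, 2 or 3 the members called numbered 103, 109 and 94. The median log2 fold change of members was -0.06, beside 0.02 over all longest transcripts. Libraries of the strains did not overlap at 240 of 471 members, beside 56.6% of all longest transcripts.

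By class, 81 of 216 CUTs (28 higher, 53 lower) and 72 of 197 XUTs (31 higher, 41 lower) passed the test. So did 24 of 57 SUTs (6 higher, 18 lower). Longer CUTs had 38 higher and 30 lower of 162, longer XUTs 158 and 120 of 552, and longer SUTs 46 and 27 of 165. Class counts were not made under the other scalings. By position, intervals past the gene's 3′ end had 17 higher and 50 lower of 179, those wholly within 29 higher and 36 lower of 177, and those past the 5′ start 13 higher and 20 lower of 90. With library sizes alone the 3′ group had 21 higher and 31 lower, the group within 33 and 32 and the 5′ group 17 and 13. With upper quartile factors these were 20 and 35, 32 and 32, and 17 and 14, so the direction of the balance in the 5′ group turned with the scaling. The excess of lower calls in the group wholly within was not kept under either of these scalings. Longer single-gene transcripts past the 3′ end had 61 higher and 57 lower of 261. Those wholly within had 44 and 31 of 167, and those past the 5′ start 70 and 50 of 224. A called change of at least 1 on the log2 scale was seen at 51 members, 25 higher and 26 lower. The same count over all longest transcripts was not made. The share called was 35.9% of 362 members with an Nrd1 motif in the first 200 bases and 42.7% of 75 without, and 36.8% of 367 members with a Nab3 motif and 38.6% of 70 without.

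The intervals with the largest changes were named only from called ones without overlap between strains. Their lack of overlap therefore follows from that choice. The interval with the largest increase was that of *PIR3*, which encodes a cell wall protein. Its 417-bp SUT interval lies wholly within the gene and had 33.0, 43.9 and 83.7 normalized counts in wild-type replicates 1 to 3 and 1915, 1633 and 2019 in *dbp2Δ* replicates 1 to 3. All *dbp2Δ* libraries were far above all wild-type libraries, a log2 fold change of 5.10 (SE 0.34, edgeR adjusted p = 8.0e-05). The gene itself had 66.0, 90.4 and 156 counts in wild-type and 3528, 2926 and 3582 in *dbp2Δ*, a log2 fold change of 5.0 (edgeR adjusted p = 0.00012). Interval and gene counts come from the same libraries, and the interval kept 1.14 to 1.32 times the gene's counts per kb in every library.

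The *GAP1* and *MEP2* intervals, opposite genes for the general amino acid permease and an ammonium permease, were both CUTs wholly within their genes. The *GAP1* interval had 72.1, 70.6 and 183 normalized counts in wild-type and 774, 570.0 and 639 in *dbp2Δ*. The *MEP2* interval had 194, 133 and 198 counts in wild-type and 683, 524 and 602 in *dbp2Δ*. The strains did not overlap at either, and the log2 fold changes were 2.60 (SE 0.36, edgeR adjusted p = 0.0016) and 1.78 (SE 0.18, adjusted p = 0.00052). The genes rose on the same scale, *GAP1* by 2.77 and *MEP2* by 1.77.

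The *MDH2* interval, a 268-bp XUT that runs past the 3′ end of the gene for cytosolic malate dehydrogenase, had 71.2, 261 and 108 normalized counts in wild-type and 1611, 1225 and 1179 in *dbp2Δ*. It rose by 3.19 (SE 0.44, edgeR adjusted p = 0.0016) and the gene by 3.26, with 31.0% of the interval within the gene. Wild-type replicate 2 was the highest of its strain in both counts. The *CIN5* interval, within the gene of a stress-response transcription factor, rose by 1.69 (SE 0.22, adjusted p = 0.0014) and the gene by 1.76.

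Among the intervals that fell most, *RDT1* had the largest change. Its 345-bp CUT spans the whole 87-bp gene and had 214, 208 and 577 raw reads in wild-type replicates 1 to 3 and 1, 4 and 2 in *dbp2Δ* replicates 1 to 3. The log2 fold change was -6.48 (SE 0.62, edgeR adjusted p = 0.00044). The gene had 131, 133 and 358 raw reads in wild-type and 0, 1 and 0 in *dbp2Δ*, too few in the mutant for a fold. Both counts were thus at or near 0 in every *dbp2Δ* library. Mating type also differs between the strains, and its part in the *RDT1* values was not tested.

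The *PNC1* interval, opposite the gene for nicotinamidase, had 1063, 4928 and 2969.8 normalized counts in wild-type and 356, 366 and 361 in *dbp2Δ*. The *ATG41* interval, opposite an autophagy gene, had 2033, 2031 and 3756 counts in wild-type and 536, 481 and 362 in *dbp2Δ*. Neither overlapped between strains, and wild-type libraries of *PNC1* were spread widely while those of *dbp2Δ* were close together. The log2 fold changes were -3.05 (SE 0.49, edgeR adjusted p = 0.0027) for *PNC1* and -2.50 (SE 0.29, adjusted p = 0.00078) for *ATG41*. The log2 fold changes of their genes were -3.19 and -2.76.

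The *MDJ1* interval is a 57-bp SUT within the gene of a mitochondrial DnaJ chaperone. It had 649, 983 and 319 normalized counts in wild-type and 114, 118 and 143 in *dbp2Δ*, while the gene had 5938, 7849.7 and 2388 and then 1116, 900.0 and 1101. Wild-type replicate 3 was the lowest of its strain in both counts, and no libraries of the strains overlapped. The interval fell by 2.37 (SE 0.37, edgeR adjusted p = 0.0027) and the gene by 2.38 (SE 0.40). The *ZWF1* interval, opposite the gene for glucose-6-phosphate dehydrogenase, fell by 1.87 (SE 0.39, adjusted p = 0.0079) and the gene by 1.79.

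The *INO1* interval, opposite the gene for inositol-3-phosphate synthase, had a change whose size depended on a single library. It had 218, 290.2 and 2712 normalized counts in wild-type replicates 1 to 3 and 93.7, 78.3 and 151 in *dbp2Δ* replicates 1 to 3. The strains did not overlap, but wild-type replicate 3 was far above the others of its strain. The log2 fold change was -3.31 (SE 0.95, edgeR adjusted p = 0.025) with all libraries and -1.23 (adjusted p = 0.0069) without wild-type replicate 3. The call was lost without any of the *dbp2Δ* libraries. Adjusted p ran from 0.0069 to 0.092 over the alternatives, of which DESeq2 gave no value for this interval.

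**Figure D3:**
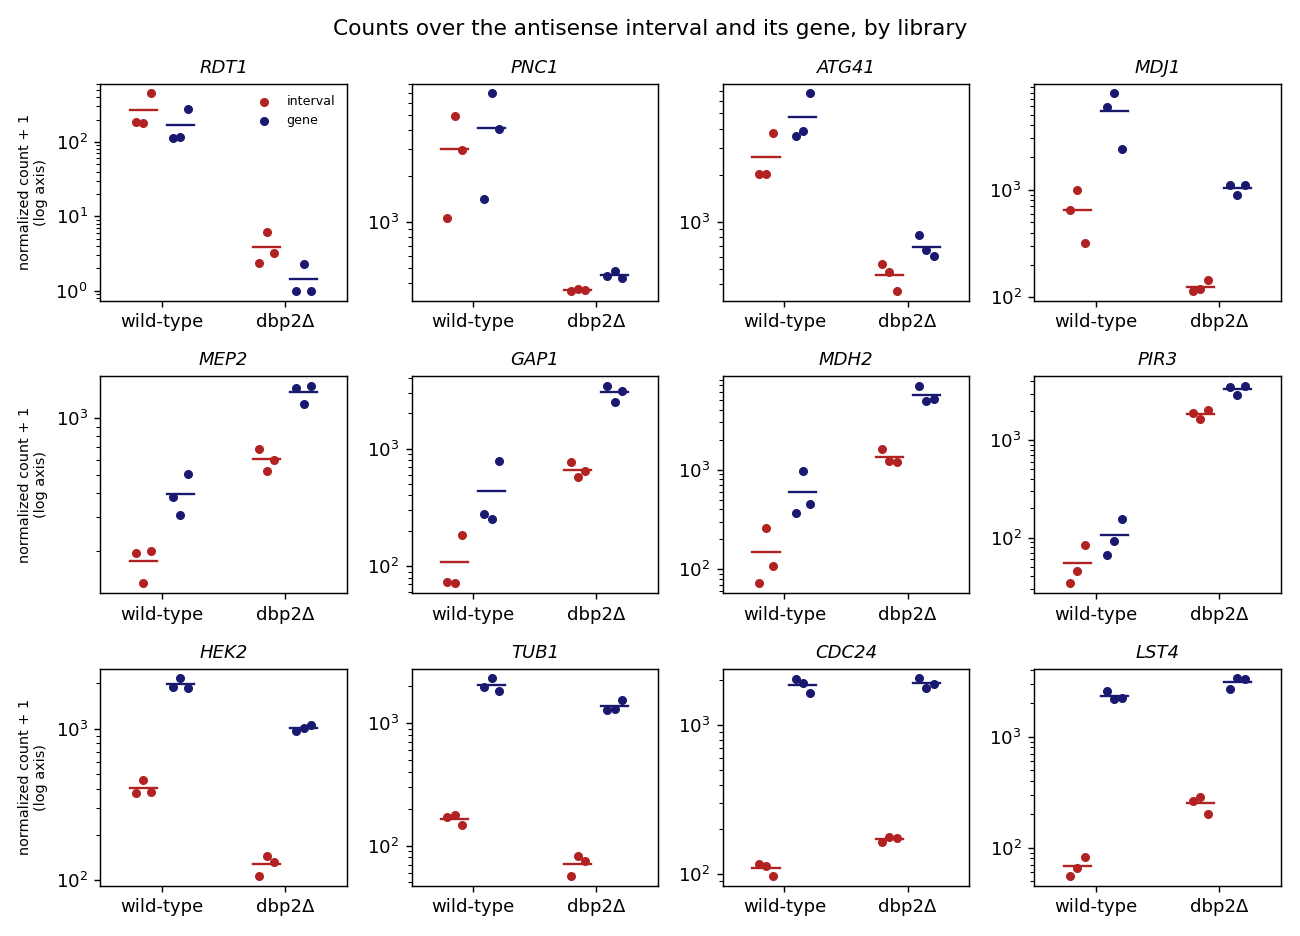
Normalized count + 1 (log axis) over the antisense interval (red) and over its gene (blue) in each of the 3 wild-type and 3 *dbp2Δ* libraries for 12 members, with short bars at the strain means. In the top rows interval and gene move together. *RDT1* falls furthest, with *dbp2Δ* counts too low for a fold of its gene. The others there run from *PIR3* at 5.10 and 5.0 to *PNC1* at -3.05 and -3.19 on the log2 scale. In the bottom row the interval moved more than the gene.

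Of the genes opposite, 186 of 452 tested passed the edgeR test, 76 higher and 110 lower, beside 42.0% of all 5943 genes tested (19.6% higher and 22.4% lower). Library sizes alone gave 83 higher and 82 lower. Without *dbp2Δ* replicate 1, 2 or 3 the genes called numbered 112, 107 and 113. Interval and gene were both called at 141 members, 48 with both counts higher and 93 with both lower. At 0 members were they called in opposite directions. Both counts of a pair come from the same libraries, and gene reads may be counted within the interval. They are therefore given side by side and not as a test. The interval alone was called at 30 members whose gene was tested and did not pass, and at 6 whose gene was too low to test. At 45 members the gene alone was called. Such counts of calls on interval, gene or both were not made over all pairs.

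The ratio of interval to gene counts was tested as an interaction between strand and strain. It differed between strains at 35 of 452 members, 10 higher and 25 lower in *dbp2Δ*, or 7.74% beside 14.3% of all 1576 pairs tested (7.3% higher and 6.98% lower). Among the longer single-gene transcripts 121 of 835 passed, or 14.5%. By position, the ratio passed for 18 of 175 intervals past the 3′ end, 9 of 175 wholly within the gene, 6 of 85 past the 5′ start and 0 of 12 that span it. In the same order, the longer single-gene transcripts had 37 of 251, 18 of 165, 26 of 214 and 40 of 196. The count of members whose ratio passed was 16 without wild-type replicate 2, 15 without *dbp2Δ* replicate 1 and 15 without *dbp2Δ* replicate 3. The ratio changed by at least 1 on the log2 scale at 4 called members. Of these, *LST4* alone had mean normalized counts of 50 or more on both strands.

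The *LST4* interval is a 457-bp SUT that runs past the 3′ end of the gene, with 11.4% of it inside. *LST4* encodes a subunit of a GTPase-activating complex that takes part in permease sorting. The interval had 54.7, 64.6 and 80.6 normalized counts in wild-type replicates 1 to 3 and 263, 288 and 199 in *dbp2Δ* replicates 1 to 3. The gene had 2577, 2182 and 2248 and then 2686, 3339 and 3336. The interval rose by 1.90 (SE 0.21, edgeR adjusted p = 0.00073) with no overlap, against 0.42 (SE 0.14, adjusted p = 0.046) for the gene, and the ratio rose by 1.47 (SE 0.26, adjusted p = 0.018). The ratio lost its call without wild-type replicate 2 and without *dbp2Δ* replicate 1 or 2, with adjusted p from 0.018 to 0.068 over the alternatives. The gene lost its call without wild-type replicate 2 and *dbp2Δ* replicate 2 or 3, with adjusted p up to 0.16.

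The nearest other gene to the *LST4* interval is *STE3*, the α-specific receptor for **a**-factor, which lies 468 bp away on the opposite strand (chrXI:113215-114627). *STE3* had 30.4, 28.4 and 80.6 normalized counts in wild-type and 4614, 3798 and 4200.0 in *dbp2Δ*, a log2 fold change of 6.48 (edgeR adjusted p = 0.00012). The part of *STE3* and of mating type in the *LST4* value was not tested. Of the 11 mating-type genes checked, *STE3* was the only gene within 1 kb of any of the 472 intervals. Other genes that differ with mating type were not checked.

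The *CDC24* interval is a 338-bp XUT past the 3′ end of the gene for the Cdc42 exchange factor, with 4.14% of it inside. It had 117, 113 and 96.9 normalized counts in wild-type and 164, 178 and 174 in *dbp2Δ*, and the gene had 2051, 1929.9 and 1638 and then 2055, 1765 and 1890.0. All *dbp2Δ* libraries were above all wild-type libraries for the interval, while the strains overlapped for the gene. The interval rose by 0.66 (SE 0.15, edgeR adjusted p = 0.010), the gene differed by 0.02 (SE 0.13, adjusted p = 0.89) and the ratio rose by 0.64 (SE 0.09, adjusted p = 0.0085). The ratio kept its call in all 6 fits that left out a library.

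The *CDC24* interval starts downstream of *CLN3*, a G1 cyclin gene on the same strand, with 50 bp between them. *CLN3* had 1000.1, 1161 and 748 normalized counts in wild-type and 3169.6, 2147 and 2823 in *dbp2Δ*, a log2 fold change of 1.48 (edgeR adjusted p = 0.0022). Its part in the *CDC24* interval was not tested.

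Lower ratios were more frequent. The *HEK2* interval is a 375-bp XUT past the 5′ start of the gene for an RNA-binding protein, with 16% of it inside. It had 374, 455 and 383 normalized counts in wild-type and 106, 143 and 132 in *dbp2Δ*, and the gene had 1876, 2139 and 1847 and then 968, 1013 and 1053. No libraries of the strains overlapped in either count, and the interval was lowered further than the gene. The interval fell by 1.67 (SE 0.15, edgeR adjusted p = 0.00039), the gene by 0.95 (SE 0.11, adjusted p = 0.0012) and the ratio by 0.72 (SE 0.09, adjusted p = 0.0048). The ratio kept its call without any 1 library. *RIB1*, the nearest other gene on the strand of the interval at 176 bp, differed by -0.20 (edgeR adjusted p = 0.31).

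The *TUB1* interval, a 265-bp SUT with only 5 bp inside the α-tubulin gene, had 170.2, 175 and 146 normalized counts in wild-type and 55.7, 80.9 and 73.8 in *dbp2Δ*. It fell by 1.22 (SE 0.19, edgeR adjusted p = 0.0026), beside 0.57 (SE 0.14, adjusted p = 0.014) for the gene, and the ratio fell by 0.65 (SE 0.13, adjusted p = 0.026). The ratio was called in 2 of 6 fits without 1 library, failing without wild-type replicate 1 or 2 and *dbp2Δ* replicate 1 or 3, with adjusted p from 0.017 to 0.10 over the alternatives. *ALO1*, the nearest other gene, lies 310 bp away on the opposite strand and fell by 0.58 (edgeR adjusted p = 0.014). The calls of *TUB1* and *ALO1* as genes were lost without *dbp2Δ* replicate 1 or 2, with adjusted p up to 0.065 and 0.064.

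The *PHO80* interval lies past the 3′ end of the gene for the cyclin of the phosphate-response kinase, with 10.3% of it inside. It had 109, 103 and 134 normalized counts in wild-type and 70.6, 88.6 and 69.2 in *dbp2Δ*, and the gene had 305, 320.4 and 291 and then 345, 380.0 and 383. The interval was lower and the gene higher in every *dbp2Δ* library than in every wild-type library. The interval fell by 0.60 (SE 0.19, edgeR adjusted p = 0.035), the gene differed by 0.27 (SE 0.12, adjusted p = 0.094) and the ratio fell by 0.89 (SE 0.17, adjusted p = 0.026). The ratio was called in 3 of 6 fits without 1 library, failing without each *dbp2Δ* library, with adjusted p up to 0.093 over the alternatives. The interval itself lost its call without wild-type replicate 2 or 3 and *dbp2Δ* replicate 1 or 3, with adjusted p up to 0.12.

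For *UBX6*, a UBX-domain gene, the strains overlapped in each count. The interval had 45.1, 97.3 and 153 normalized counts in wild-type and 66.5, 61.6 and 84 in *dbp2Δ*, and the gene had 155, 397 and 598 and then 481, 407 and 528. Relative to the gene per kb, the interval stood at 0.689 to 0.816 in wild-type and 0.389 to 0.447 in *dbp2Δ*, with no overlap, and the ratio fell by 0.78 (SE 0.09, edgeR adjusted p = 0.0045). That call held in all 6 fits without 1 library.

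At *HMX1*, the heme oxygenase gene, both counts rose and the gene rose further, by 2.00 against 1.35 for the interval. The ratio fell by 0.65 (edgeR adjusted p = 0.028) and was called in 1 of 6 fits without 1 library, the fit without *dbp2Δ* replicate 2, with adjusted p up to 0.096. The other named increases of the ratio were 0.52 at *PGM2* (phosphoglucomutase), 0.48 at *ERV29* (a cargo receptor of the endoplasmic reticulum) and 0.48 at *YOL014W*. At those 3 members the gene fell, with log2 fold changes of -1.39, -1.09 and -2.24, and the interval differed by -0.86, -0.61 and -1.72. Their ratios were called in 3, 2 and 1 of 6 fits without 1 library, each failing without any *dbp2Δ* library, *ERV29* and *YOL014W* also without wild-type replicate 2 and *YOL014W* without wild-type replicate 3, with adjusted p up to 0.074, 0.068 and 0.12. Without wild-type replicate 2 the *YOL014W* log2 fold changes were -1.08 for the interval and -1.48 for the gene.

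**Figure D4:**
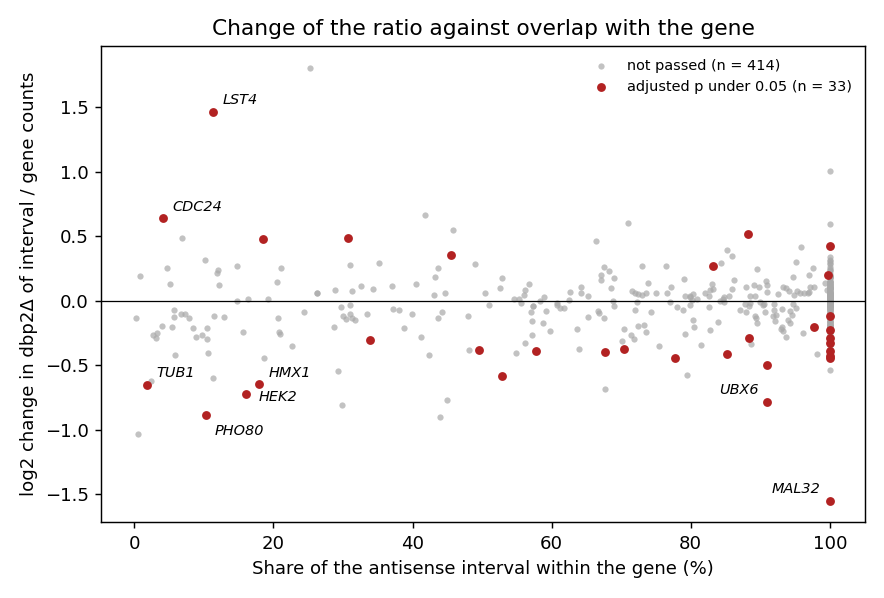
Log2 change in *dbp2Δ* of the interval counts relative to the gene counts, against the share of the interval that lies within the gene (%), 1 point per tested member with an annotated gene. Red points passed the edgeR test. *LST4* (1.47) and *CDC24* (0.64) are the highest of them at low overlap, with *PHO80* (-0.89), *HEK2* (-0.72) and *TUB1* (-0.65) below the line, and *MAL32* (-1.55), whose gene counts are low, is the lowest.

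At the lowest overlaps, where under 10% of the interval lay within the gene, 8 of 24 intervals were called (2 higher, 6 lower), or 33.3% beside 43.5% of all longest transcripts. Besides *CDC24* and *TUB1* they included those of *NAR1* (iron-sulfur protein assembly, -0.93), *SNA3* (vacuolar sorting, -0.85), *SRP14* (signal recognition particle, -0.69) and *YNL033W* (0.83). Their edgeR adjusted p were 0.015, 0.023, 0.035 and 0.013, and their ratios did not pass, or in the case of *YNL033W* could not be tested. *YNL033W* has a near-identical copy elsewhere in the genome, so its counts are uncertain. Leaving out *dbp2Δ* replicate 3 ended the call at each of these 4, and other single libraries did so at *NAR1* (*dbp2Δ* replicate 1), *SNA3* (wild-type replicate 2, *dbp2Δ* replicates 1 and 2) and *SRP14* (wild-type replicates 2 and 3, *dbp2Δ* replicate 2). Over the alternatives their adjusted p reached 0.058, 0.080, 0.11 and 0.061. The *NAR1* interval starts 243 bp from the neighbouring *ZWF1* gene. Among all 101 tested members with under 50% within the gene, 10 intervals rose and 32 fell, or 9.9% and 31.7% beside 22.5% and 21.0% of all longest transcripts. Library sizes alone gave 13 and 22, and leaving out *dbp2Δ* replicate 1 or 3 gave 9 and 14 in both cases.

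At 58 members the interval held more raw reads than the whole gene in all 6 libraries. Of these, 37 faced genes with a mean normalized count under 50 and 21 faced genes at or above it. By position, 16 ran past the 5′ start, 10 past the 3′ end, 11 spanned the gene, 9 lay wholly within it and 12 faced genes outside the annotation. In this set 13 intervals rose, 8 fell, 36 did not pass and 1 was not tested. The 21 called were 36.8% of the 57 tested, beside 43.5% of all longest transcripts, with 22.8% higher and 14% lower beside 22.5% and 21.0%.

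The following members were chosen after their values were seen. The *EFM3* interval, a 409-bp CUT wholly within the gene of an elongation factor methyltransferase, had 254, 182 and 239 normalized counts in wild-type and 216, 173 and 242 in *dbp2Δ*. The 1020-bp gene had 138, 77.5 and 111 and then 139.8, 82.2 and 156, less than the interval in every library. Neither count passed the test (interval log2 fold change -0.10, edgeR adjusted p = 0.70). The *YFL067W* interval had 71.3 to 146 normalized counts across the libraries, where the gene had between 0 and 2 raw reads, and it rose by 0.61 (adjusted p = 0.047). Its call held only without wild-type replicate 1 among the fits that left out a library, with adjusted p up to 0.18. It lies at chrVI:856-1195, near a chromosome end, and how reads shared between like chromosome ends were counted is not given, so its value is uncertain.

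The *YFL015C* interval lies 41 bp upstream of *HSP12*, a heat shock gene on the same strand. It had 4, 5 and 17 raw reads in wild-type and 88, 78 and 51 in *dbp2Δ*, while *YFL015C* itself had 0 to 10 reads. It rose by 3.66 (SE 0.48, edgeR adjusted p = 0.0014), and *HSP12* had 14.8, 32.7 and 266 normalized counts in wild-type and 3035, 2604 and 2053 in *dbp2Δ*, a log2 fold change of 4.6. Both were higher in all *dbp2Δ* libraries, and the part of *HSP12* in the interval was not tested. The *YGR265W* interval had 119, 101 and 166 normalized counts in wild-type and 307, 273 and 241 in *dbp2Δ*, with 0 reads for the gene in all 6 libraries, and rose by 1.09 (adjusted p = 0.0052). The *MAL32* interval, within a maltase gene, ranged from 34.1 to 50.4 normalized counts across wild-type and from 40.9 to 59.7 across *dbp2Δ* libraries. The gene had 15.5 to 24.3 and 55.2 to 69.2, so that the interval passed the gene in wild-type and not in *dbp2Δ*, and the ratio fell by 1.55 (edgeR adjusted p = 0.0042). *MAL32* has a near-identical copy, *MAL12*, so its counts are uncertain.

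At the 500-bp limit, the 2 longest members were the 497-bp intervals of *LOA1*, an acyltransferase gene (log2 fold change -0.48, edgeR adjusted p = 0.018), and *YOR316C-A* (-1.25, adjusted p = 0.015). Both lost the call without *dbp2Δ* replicate 1 or 2, with adjusted p up to 0.072 and 0.063. Just outside were *ERG2* at 500 bp, a sterol synthesis gene, whose interval had a log2 fold change of -0.97 (SE 0.13, edgeR adjusted p = 0.0013), and *SPG1* at 504 bp. The *SPG1* interval had means of 15.4 and 8.41 normalized counts in wild-type and *dbp2Δ* and did not pass (-0.87, SE 0.48, adjusted p = 0.18). The shortest was the 41-bp SUT interval of *RSC8*, a chromatin remodelling gene, with 380.2, 371 and 294 normalized counts in wild-type and 149, 164 and 123 in *dbp2Δ*. It fell by 1.26 (SE 0.16, adjusted p = 0.0013) and the gene by 0.72.

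The genes that make, remove or limit antisense RNA were mostly not called. In a list of 20 genes of RNA decay and early termination, 1 rose, 2 fell and 17 did not pass, with a median log2 fold change of 0.02 beside -0.02 over all genes, of which 42.0% were called (19.6% higher, 22.4% lower). The decay activator genes *LSM1* and *PAT1* fell (log2 fold changes -0.49 and -0.63, edgeR adjusted p = 0.010 and 0.016) and *RAI1*, a partner of the nuclear exonuclease Rat1, rose by 0.30 (adjusted p = 0.042). The Nrd1 and Nab3 genes differed by -0.11 and -0.21 (adjusted p = 0.76 and 0.51), the exosome gene *RRP6* by 0.01 (adjusted p = 0.97) and *XRN1* by -0.39 (adjusted p = 0.083). Without wild-type replicate 3, *NRD1* (-0.38), *NAB3* (-0.46) and *XRN1* (-0.52) were called lower, with edgeR adjusted p of 0.046, 0.011 and 0.0045. Of 16 genes for chromatin and elongation factors, *RCO1* (0.49) and *SET1* (0.51) rose, *EAF3* (-0.37), *SPT2* (-0.43) and *THO1* (-0.88), which encodes an RNA-binding protein, fell and 11 did not pass, with a median of -0.17 beside the same shares of all genes. Of the called genes in these lists only *LSM1* and *THO1* kept the call without any 1 library, and the others lost it at least without *dbp2Δ* replicate 1 or 2, with adjusted p up to 0.16 for *RAI1*.

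From these lists, *LSM1*, *CHD1* and *RTT109* each face a member. The *LSM1* interval, a CUT past the 3′ end, fell by 0.42 (edgeR adjusted p = 0.031), and it kept the call without wild-type replicate 1 or 3 and lost it without any other library, with adjusted p up to 0.11. The intervals of *CHD1*, a chromatin remodeller, and *RTT109*, a histone acetyltransferase, differed by -0.41 (adjusted p = 0.074) and 0.01 (adjusted p = 0.96).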

How the data were processed

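The authors deposited raw counts per library for 7032 genes and for 2376 rows of antisense transcripts, and 4 lines of the gene table were left empty in the copy used. Per the submitters' notes, featureCounts and edgeR were run on build R64. The sources used here give neither the aligner nor the strand setting. Coordinates and sequences came from the R64 reference, and classes from the study's transcript list.

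Tests used edgeR 4.0.16 (glmQLFit, glmQLFTest) under R 4.3.3 after filterByExpr, with TMM factors of 0.930 to 1.04 and strain as the only factor. Scaling of the antisense counts used effective library sizes from the gene counts. Calls are Benjamini-Hochberg adjusted p under 0.05 over all 1513 longest transcripts, 5943 genes or 1576 pairs. The ratio was fitted over both strands with a term for each library. Each SE printed is the absolute log2 fold change divided by the square root of the F statistic of glmQLFTest. Scripts were tested on simulated data. Alternatives used DESeq2 1.42.0, limma 3.58.1 voom, other scalings and thresholds, no low-count filter, a replicate block, single libraries left out and subsets of members.

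Members and lists were chosen with earlier results of these data known. Named members are the 6 largest changes in each direction among called intervals without overlap between strains and with 50 or more mean normalized counts, the 5 largest ratio changes in each direction with at least 50 on both strands, the 5 highest counts per kb, up to 5 called intervals under 10% within the gene, up to 6 called in opposite directions, members of the lists, and those at the length limits.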

Additional observations from a re-analysis of the deposited data

How the results depend on the processing

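The count of intervals called, 177, was within 1.5 times under every other scaling, test and filter tried (158 to 189), and reached 287 at an adjusted p under 0.25, 70 at 0.01 and 42 among members with under 50% within the gene. Leaving out a library gave 94 to 192 intervals, 107 to 214 genes and 15 to 33 ratios, in place of 177, 186 and 35. Genes called numbered 289 at 0.25 and 92 at 0.01. Ratios called numbered 140 at 0.25, 10 at 0.01, 11 among members with under 50% within the gene and 37 with limma-voom. In the fits that left out a library the fewer samples lower the degrees of freedom, and why *dbp2Δ* libraries mattered more was not tested. Same-numbered libraries did not deviate together from their strain means in antisense counts (correlations -0.098, -0.17 and -0.015). The labels do not say whether the numbers mark libraries handled together. With a replicate block the calls were 129 intervals, 143 genes and 17 ratios (1 higher, 16 lower). For the members and genes named with a test, 1515 values under an alternative stayed on their side of the threshold, 142 lost a call and 21 gained one. The sign changed at 35 values of 16 results, all uncalled both as reported and under the alternative, and at 0 called values. Depth limits the low members most: 20 members faced genes too low to test and 1 interval was not tested.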
